A study of Mus musculus with 12 samples.

Results

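Cells detect foreign or misplaced nucleic acids with a small set of receptors and adaptor proteins, and 10 genes of this set were followed through 12 RNA sequencing libraries of the mouse ovarian cancer line HM1. They were taken as a named list (Ddx58, Ifih1, Dhx58, Mavs, Cgas, Sting1, Zbp1, Eif2ak2, Tlr3 and Tlr7) among the 56514 gene identifiers listed in the culture or tumor tables. The RIG-I gene is spelled Ddx58 in the tables. All 10 names were found, each with 1 identifier. The libraries form 4 groups of 3: shST3GAL3 tumors, shControl tumors, HM1-shST3GAL3 cells in culture and HM1-shControl cells in culture. The shST3GAL3 groups carry a short hairpin RNA against St3gal3, a gene for a sialyltransferase that caps glycan chains with sialic acid, and are labelled as a knockdown of it. The other groups carry a control hairpin, are labelled wild type, and are called controls here. The hairpin vector, the number of clones, the tumor site, the host mice and any treatment or time point are not stated by the labels. They also do not state whether the 3 libraries of a group are independent cultures or animals. The p-values therefore cover only the spread between these libraries, which may be technical. By its title, the series concerns immunity against tumors and resistance to immunotherapy.

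As background, RIG-I (Ddx58) and MDA5 (Ifih1) bind double-stranded RNA in the cytosol and signal through MAVS on mitochondria, while LGP2 (Dhx58) lacks the signalling domain of its relatives and modulates them. The enzyme cGAS answers cytosolic DNA by making a cyclic dinucleotide that activates STING (Sting1), ZBP1 binds nucleic acids in the Z form and can engage the kinase RIPK3, and PKR (Eif2ak2) stops translation when it meets double-stranded RNA. TLR3 and TLR7 are endosomal receptors for double-stranded and single-stranded RNA. Several of these genes are themselves induced by interferon, through promoter elements called ISREs, and both tumor cells and infiltrating immune cells can express them.

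The targeted gene, St3gal3 (ENSMUSG00000028538), was checked ahead of the sensors, and its knockdown and control libraries lay apart in both tissues. It stood at 6.30 ± 0.848 TPM in knockdown tumors, against 14.9 ± 0.794 TPM in control tumors (SD, n = 3 each), and at 1.53 ± 0.290 TPM in knockdown cultures, against 11.7 ± 1.82 TPM in control cultures. TPM is scaled by transcript length and by library, so levels of different genes can be set beside each other, and the depth behind the values is unknown. Between 14046 and 14534 genes reached 1 TPM in a tumor library and between 12629 and 13145 in a culture library. The epithelial keratins Krt8, Krt18 and Krt19 were abundant in all 12 libraries. Of the 5 other markers of ovarian or epithelial tumors, Msln (mesothelin) had 32.9 to 40.7 TPM in knockdown tumors, against 49.9 to 68.7 TPM in control tumors, and 16.5 to 18.5 TPM in knockdown cultures, against 15.4 to 18.1 TPM in control cultures. Wt1 had 1.14 to 2.23 TPM in knockdown tumors, against 0.94 to 1.75 TPM in control tumors, and did not exceed 0.10 TPM in culture. Epcam stayed at or under 0.50 TPM, Pax8 at or under 0.82 TPM, and Muc16 was listed at 0 in all 6 tumors.

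Promoter sequence was examined because several members were higher in the same tumors. The windows run from 250 bases before to 50 bases after the start of a gene in RefSeq, on build GRCm38.p6, which is not the build of the expression tables. Windows were matched for 6 of the 10 genes (Ddx58, Ifih1, Mavs, Cgas, Eif2ak2 and Tlr3) and not for Dhx58, Zbp1, Sting1 and Tlr7. The ISRE core was searched as GAAANNGAAA on both strands and counted once per window. It occurred in 3 of the 6, those of Ddx58, Ifih1 and Eif2ak2, and in 3.44% of 32851 windows of the same length. The windows of Mavs, Cgas and Tlr3 did not contain these letters. A GAS element, searched as TTCNNNGAA, which reads the same on both strands, occurred only in the Eif2ak2 window among the 6, and in 8.30% of all windows. In that window the GAS match lies apart from the ISRE core, and a match only describes the sequence. The Tlr3 window lies at a start site within the RefSeq gene, not at its outer end. The windows with an ISRE core are shown because they are the 3 of the 6 that hold these letters, and the window of Mavs, the adaptor of RIG-I and MDA5, follows as 1 of the 3 that do not. They are written 5′ to 3′ along the strand of the gene, with the ISRE core in capitals.

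Ifih1 (chr2:62646206-62646505, minus strand; core on the strand of the gene, from base 33 after the start): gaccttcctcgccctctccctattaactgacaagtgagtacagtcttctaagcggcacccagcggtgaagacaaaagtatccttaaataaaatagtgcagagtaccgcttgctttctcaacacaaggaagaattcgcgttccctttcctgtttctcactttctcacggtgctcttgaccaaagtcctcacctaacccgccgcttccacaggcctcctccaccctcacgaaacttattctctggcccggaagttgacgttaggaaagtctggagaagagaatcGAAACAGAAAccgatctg

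Eif2ak2 (chr17:78882523-78882822, minus strand; core on the strand of the gene, from base 19 after the start): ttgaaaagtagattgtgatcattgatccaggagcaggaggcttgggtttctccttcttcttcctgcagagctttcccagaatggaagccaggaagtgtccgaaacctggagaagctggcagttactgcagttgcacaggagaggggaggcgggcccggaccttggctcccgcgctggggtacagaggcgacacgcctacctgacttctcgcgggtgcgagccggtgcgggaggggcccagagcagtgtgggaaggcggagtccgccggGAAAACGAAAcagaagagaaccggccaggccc

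Ddx58 (chr4:40239776-40240075, minus strand; core on the opposite strand, so that it is read here as its reverse complement, from base 3 after the start): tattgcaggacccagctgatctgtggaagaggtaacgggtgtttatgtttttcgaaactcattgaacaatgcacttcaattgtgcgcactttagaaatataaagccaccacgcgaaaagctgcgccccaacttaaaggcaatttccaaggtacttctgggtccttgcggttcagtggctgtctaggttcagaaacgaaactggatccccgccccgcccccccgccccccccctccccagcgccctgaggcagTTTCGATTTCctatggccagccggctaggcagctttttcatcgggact

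Mavs (chr2:131233813-131234112, plus strand; no core): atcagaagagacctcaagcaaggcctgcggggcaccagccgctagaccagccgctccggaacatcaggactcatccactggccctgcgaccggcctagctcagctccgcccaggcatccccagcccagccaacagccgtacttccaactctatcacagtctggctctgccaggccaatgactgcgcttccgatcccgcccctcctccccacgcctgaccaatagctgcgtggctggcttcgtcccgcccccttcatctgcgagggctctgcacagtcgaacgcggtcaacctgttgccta

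Dhx58 and Eif2ak2 were higher in knockdown tumors than in control tumors, and no member was called lower. All 10 members passed the filter on low values and were tested together with the other genes, 14915 in all. Of the 10, 2 were called higher and 0 lower at an adjusted p under 0.05 (limma, Benjamini-Hochberg), while over all genes 1.51% were called in either direction and 1.07% were called higher. All 10 fitted changes were positive, against 39.6% of all genes, and their median log2 change was 0.49, against -0.05 for all genes. For 8 of the 10, every knockdown tumor lay above every control tumor, an arrangement seen in 9.81% of all genes, and the exceptions were Mavs and Sting1. These counts describe a list chosen with earlier results known and carry no test of their own. Because these are bulk tumors, a larger number of cells that express a gene and more of its RNA per cell cannot be told apart.

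**Figure D1:**
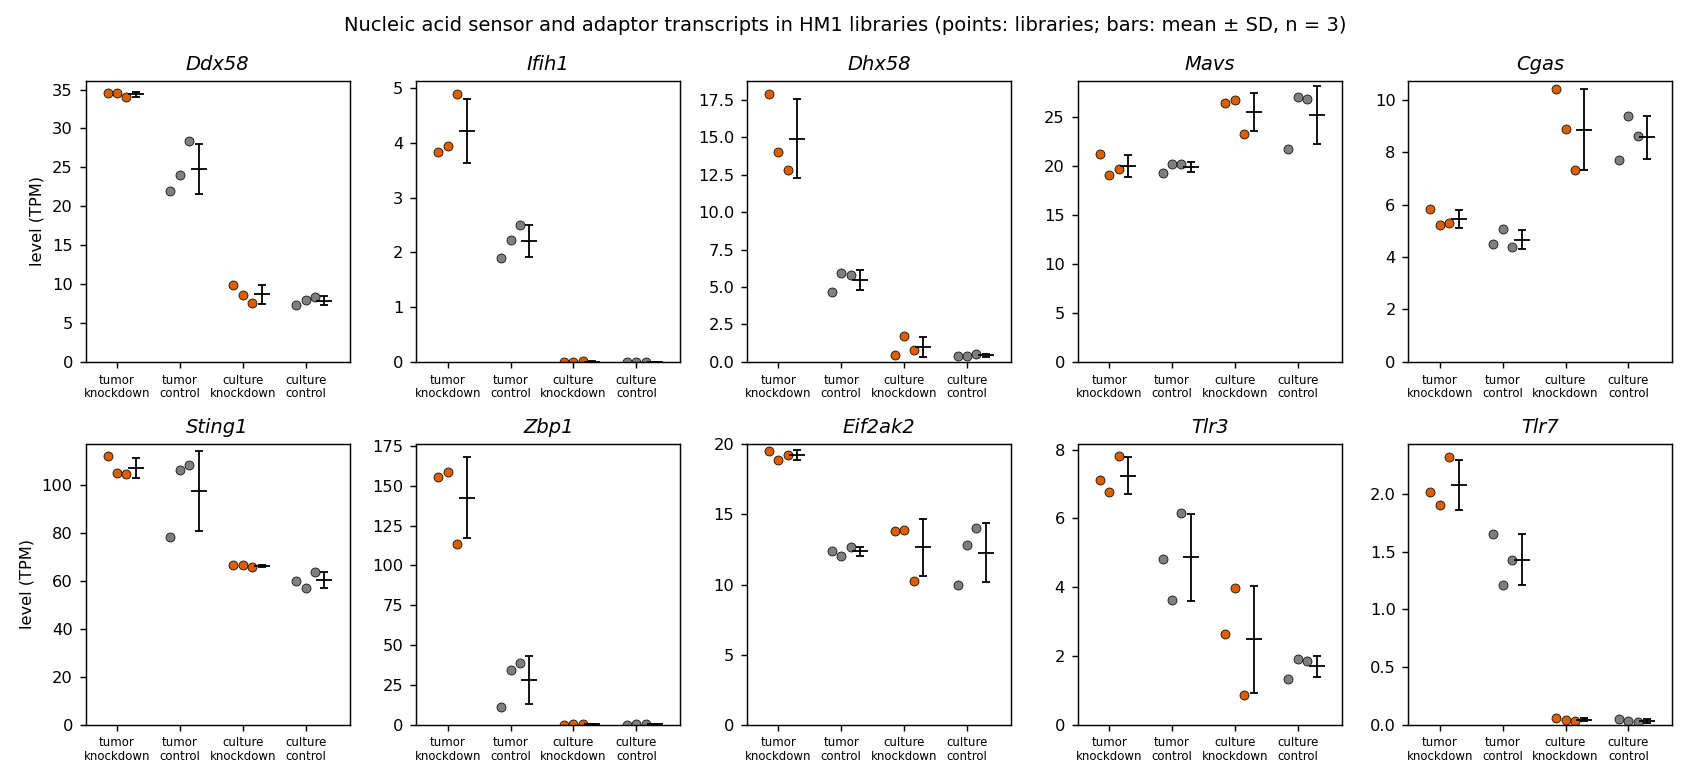
Level of each sensor or adaptor gene in TPM (vertical axes, linear, each from 0) in the 12 libraries, by group; points are libraries and bars are mean ± SD (n = 3). Zbp1 lies at 113 to 159 TPM in knockdown tumors and 11.0 to 39.0 TPM in control tumors, whereas Mavs keeps overlapping levels in both.

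Among the RIG-I-like receptors, Dhx58 moved most. Dhx58 (ENSMUSG00000017830), the regulatory member LGP2, had 17.9, 14.1 and 12.8 TPM in the knockdown tumors, against 4.67, 5.92 and 5.79 TPM in the control tumors. The groups did not overlap, and the lowest knockdown tumor had more than any control tumor. The log2 change was 1.29 with a standard error of 0.15 and an adjusted p of 0.0130 (limma). Without knockdown tumor 2 the adjusted p was 0.0510 at a log2 change of 1.33, so the call did not hold without that library, and over the 14 alternatives the adjusted p ranged from 0.00599 to 0.108 (limma).

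Ifih1 (ENSMUSG00000026896), the MDA5 gene, had 3.83, 3.95 and 4.89 TPM in the knockdown tumors, against 1.90, 2.23 and 2.50 TPM in the control tumors. Its groups also lay apart, with a log2 change of 0.70 (standard error 0.14), but the adjusted p of 0.0628 (limma) missed the threshold. Ddx58 (ENSMUSG00000040296), the RIG-I gene, was almost the same in the 3 knockdown tumors, at 34.6, 34.6 and 34.0 TPM, against 22.0, 24.1 and 28.3 TPM in the control tumors. Here too every knockdown tumor exceeded every control tumor, at a log2 change of 0.46 (standard error 0.10) and an adjusted p of 0.0765 (limma). Both genes passed the threshold when the tumor libraries were rescaled by median of ratios, with adjusted p-values of 0.0311 for Ifih1 and 0.0438 for Ddx58 (limma). Over all alternatives these ranged from 0.0104 to 0.311 for Ifih1 and from 0.0431 to 0.327 for Ddx58.

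Mavs (ENSMUSG00000037523), the adaptor through which RIG-I and MDA5 signal, did not share this arrangement. It had 21.2, 19.1 and 19.7 TPM in the knockdown tumors, against 19.4, 20.2 and 20.2 TPM in the control tumors. The groups overlapped fully, and the log2 change was 0.01, with a 95% interval of -0.17 to 0.18 and an adjusted p of 0.976 (limma). Its sign turned negative without control tumor 1, at -0.014, and with knockdown tumor 1 left out, at -0.036. The receptors and their adaptor thus gave different values in the same tumors, although the difference between the genes was not tested.

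Zbp1 (ENSMUSG00000027514), the sensor of Z-form nucleic acids, had the largest fitted change of the 10 and also the most uneven controls. It had 156, 159 and 113 TPM in the knockdown tumors, against 11.0, 34.4 and 39.0 TPM in the control tumors. Every knockdown tumor was above every control tumor, and control tumor 1 was far below the other controls. The mean was 143 ± 25.4 TPM in knockdown tumors and 28.1 ± 15.02 TPM in control tumors (SD, n = 3 each), a ratio of 5.08. The log2 change was 2.47 with a standard error of 0.51, which ranked 53 among all genes, and the adjusted p was 0.101 (limma), so Zbp1 was not called. Without control tumor 1 the log2 change was 1.92 and the adjusted p 0.0103 (limma), and over the 14 alternatives the adjusted p ranged from 0.00448 to 0.334.

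Eif2ak2 (ENSMUSG00000024079), which encodes the translation-stopping kinase PKR, was the most even member. It had 19.6, 18.9 and 19.3 TPM in the knockdown tumors, against 12.4, 12.01 and 12.7 TPM in the control tumors. Within each group the libraries differed by less than 1 TPM, and the groups lay more than 6 TPM apart. The log2 change was 0.60 with a standard error of 0.07 and an adjusted p of 0.0155 (limma), a ratio of means of 1.56. With fewer libraries the same change was no longer called: the adjusted p was 0.0811 when knockdown tumor 1 was left out, 0.0643 for knockdown tumor 2 and 0.0613 for control tumor 2 (limma). Over the 14 alternatives it ranged from 0.0104 to 0.224, and the log2 change from 0.57 to 0.66.

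The DNA-sensing pair differed little between the tumors. Cgas (ENSMUSG00000032344), the cytosolic DNA sensor, had 5.83, 5.22 and 5.31 TPM in the knockdown tumors, against 4.50, 5.09 and 4.40 TPM in the control tumors. The groups just missed overlapping, and the log2 change of 0.19 had a 95% interval of -0.06 to 0.44 and an adjusted p of 0.374 (limma). Sting1 (ENSMUSG00000024349), the adaptor that cGAS activates, had 112, 105 and 105 TPM in the knockdown tumors, against 78.4, 106 and 108 TPM in the control tumors. Only control tumor 1 was low, and the other libraries were interleaved. The log2 change of 0.15 had a 95% interval of -0.15 to 0.44 and an adjusted p of 0.552 (limma), and without control tumor 1 it was close to 0 and negative, at -0.00059.

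The endosomal receptors were low and higher in each knockdown tumor than in any control tumor, without passing the test. Tlr3 (ENSMUSG00000031639), the receptor for double-stranded RNA, had 7.11, 6.77 and 7.82 TPM in the knockdown tumors, against 4.81, 3.63 and 6.15 TPM in the control tumors. The control tumors spread more widely than the knockdown tumors, and the log2 change of 0.51 (standard error 0.17) had an adjusted p of 0.178 (limma). Tlr7 (ENSMUSG00000044583), the receptor for single-stranded RNA, had 2.02, 1.90 and 2.32 TPM in the knockdown tumors, against 1.65, 1.21 and 1.43 TPM in the control tumors. These levels are close to the filter of 1 TPM, and the log2 change of 0.34 (standard error 0.15) had an adjusted p of 0.266 (limma).

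**Figure D2:**
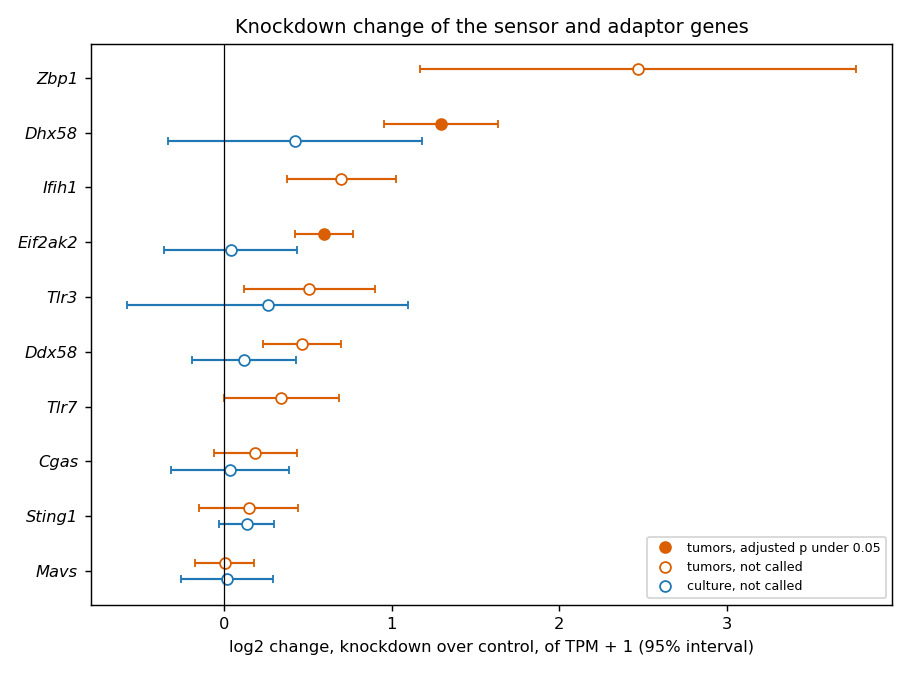
Log2 change of TPM + 1, knockdown over control, for each gene in tumors (orange) and in culture (blue), with 95% intervals; filled points have an adjusted p under 0.05 (limma). Dhx58 at 1.29 and Eif2ak2 at 0.60 are the filled points, no culture point is filled, and Ifih1, Zbp1 and Tlr7 have no culture point because they were under the filter there.

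The knockdown tumor with the highest level was not the same for every member. Relative to the mean of the control tumors on the log2 scale of TPM + 1, knockdown tumor 1 was the highest for Dhx58, at 1.55, against 1.23 and 1.10 in knockdown tumors 2 and 3. Ifih1, Tlr3 and Tlr7 were highest in knockdown tumor 3, at 0.88, 0.61 and 0.45. Zbp1 was highest in knockdown tumor 2, at 2.64, and lowest of the knockdown tumors in tumor 3, at 2.16. No knockdown tumor was thus highest for all members. Among the control tumors, number 1 was the lowest for Ddx58, Ifih1, Dhx58, Mavs, Sting1 and Zbp1, with -1.10 for Zbp1.

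**Figure D3:**
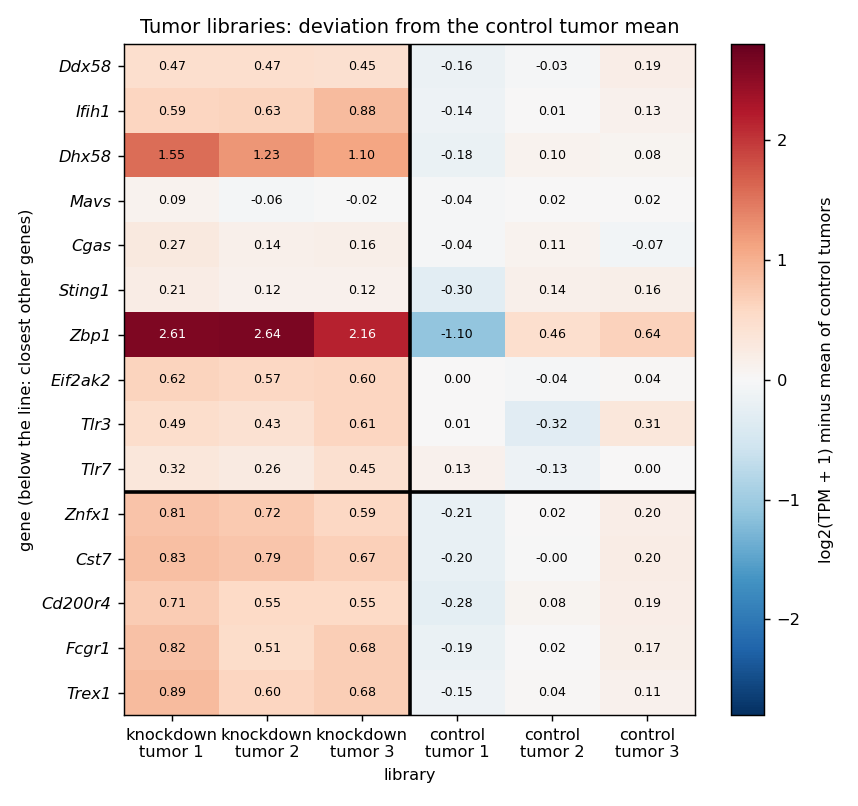
Deviation of each gene (rows) from the mean of the control tumors in each tumor library (columns), in log2 of TPM + 1; the genes under the horizontal line are the 5 other genes whose profiles were closest to the mean profile of the members. Zbp1 spans -1.10 to 2.64, while Mavs stays between -0.06 and 0.09.

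In culture the knockdown left the members without a call. Of the 10, 7 passed the filter and 0 were called (limma), with 0 at an unadjusted p under 0.05. Over all 13492 genes tested in culture, 0.0296% were called and 3.42% had an unadjusted p under 0.05, so a count of 0 among 7 is near the background. The median log2 change of the 7 was 0.12, against 0.02 for all genes. Ifih1 was listed at 0 in 5 culture libraries and at 0.02 TPM in the last, a knockdown library. Zbp1 did not exceed 0.09 TPM in knockdown cultures or 0.11 TPM in control cultures, and Tlr7 did not exceed 0.06 TPM in knockdown cultures or 0.05 TPM in control cultures. These 3 genes were therefore close to undetected in the cultured line, whichever hairpin it carried.

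Sting1 was the only member whose culture groups lay apart, which 5.25% of all genes did in this direction. It had 66.6, 66.6 and 65.7 TPM in knockdown cultures, against 59.9, 57.2 and 63.8 TPM in control cultures, a log2 change of 0.14 with a 95% interval of -0.03 to 0.30 and an adjusted p of 1.00 (limma). Dhx58, called in tumors, had 0.43, 1.76 and 0.82 TPM in knockdown cultures, against 0.37, 0.41 and 0.53 TPM in control cultures. A single knockdown culture, number 2, stood out, and the groups overlapped, with a log2 change of 0.43 and an interval of -0.33 to 1.18. Eif2ak2 had 13.8, 13.9 and 10.3 TPM in knockdown cultures, against 9.94, 12.8 and 14.0 TPM in control cultures. These groups overlapped fully, with a log2 change of 0.04 and an interval of -0.35 to 0.44.

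The remaining members overlapped in culture as well. Ddx58 had 9.91, 8.63 and 7.53 TPM in knockdown cultures, against 7.30, 8.00 and 8.36 TPM in control cultures. Cgas had 10.4, 8.87 and 7.32 TPM in knockdown cultures, against 7.71, 9.37 and 8.63 TPM in control cultures. In both genes knockdown culture 1 was the highest of the 6 libraries. Mavs had 26.5, 26.8 and 23.3 TPM in knockdown cultures, against 21.8, 27.1 and 26.9 TPM in control cultures. Tlr3 had 2.63, 3.96 and 0.85 TPM in knockdown cultures, against 1.34, 1.91 and 1.84 TPM in control cultures. The knockdown cultures of Tlr3 thus held both the highest and the lowest value.

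Whether the knockdown change in tumors exceeded that in culture was tested with an interaction term over the 12 libraries. No member was called, while 0.754% of the 15381 genes tested were. The limma count was 0 of 10 at an adjusted p under 0.05 and 4 of 10 at an unadjusted p under 0.05, against 11.1% of all genes tested. Of the 10 differences 9 were positive, against 39.1% of all genes, with a median of 0.34, against -0.06 for all genes. Zbp1 had the largest difference, 2.47 on the log2 scale with a standard error of 0.52 and an adjusted p of 0.0673 (limma). Leaving out control tumor 1 gave a difference of 1.92 and an adjusted p of 0.00215, and leaving out control tumor 3 gave 2.79 and 0.0298 (limma). Of the 12 fits that left out 1 library, only these 2 called Zbp1. In the other 10 its adjusted p reached up to 0.169, and with a replicate block it was 0.230 (limma). Ifih1 had a difference of 0.69 with an adjusted p of 0.132, Dhx58 a difference of 0.87 with 0.290, and Eif2ak2 a difference of 0.56 with 0.277 (limma). A change called in tumors and not in culture was therefore not shown to differ between them for Dhx58 or Eif2ak2.

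The order of the members by level differed between tumors and culture. In knockdown tumors Zbp1 was the most abundant, at 143 TPM, ahead of Sting1 at 107 TPM and Ddx58 at 34.4 TPM, with no overlap between these neighbours. In control tumors Sting1 led at 97.8 TPM, followed by Zbp1 at 28.1 TPM and Ddx58 at 24.8 TPM, and the ranges of Zbp1 and Ddx58 overlapped. Zbp1 thus stood above Sting1 in knockdown tumors and below it in control tumors. In the middle of the order, Mavs and Eif2ak2 overlapped in knockdown tumors at 20.0 and 19.2 TPM, and Dhx58, Tlr3 and Cgas overlapped as neighbours in control tumors. In both culture groups the order was Sting1, Mavs, Eif2ak2, Cgas, Ddx58, Tlr3, Dhx58, Zbp1, Tlr7 and Ifih1. Cgas and Ddx58 overlapped as neighbours in both culture groups, as did Zbp1 and Tlr7, and Eif2ak2 with Cgas and Tlr3 with Dhx58 overlapped in the knockdown cultures.

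Tumor and culture tables may have been normalized separately, so the next ratios are descriptive. Ddx58 was 3.96 times as high in knockdown tumors as in knockdown cultures, and 3.14 times as high in control tumors as in control cultures. Tlr3 was 2.92 times and Sting1 1.62 times as high in knockdown tumors as in knockdown cultures, and 2.87 times and 1.62 times as high in control tumors as in control cultures. For these 3 genes the tumor and culture libraries did not overlap with either hairpin. Cgas and Mavs went the other way: the ratio of tumor to culture was 0.615 and 0.785 with the knockdown, and 0.544 and 0.790 with the control hairpin. For Eif2ak2 the ratio was 1.52 with the knockdown, where tumor and culture libraries lay apart, and 1.01 with the control hairpin, where they overlapped. Dhx58, Ifih1, Zbp1 and Tlr7 were higher in every tumor than in every culture of the same hairpin, with a ratio of 14.9 for Dhx58 under the knockdown and none given for the last 3, since their culture levels were at or near 0.

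Around the 10 members, 98 other genes of their pathways were examined in 8 lists. In tumors 91 passed the filter, 14 were called higher and 0 lower (limma), against the 1.07% of all genes called higher, and the median log2 change of the 91 was 0.01. In culture 0 of 78 were called, against 0.0296% of all genes, so this count is near the background. For the difference 9 of 91 were higher and 0 lower, against 0.754% of all genes called in either direction. The calls were thus few per list, with medians near 0 except for the last list. Leaving out knockdown tumor 1 or knockdown tumor 2 brought the 14 calls down to 8, and leaving out knockdown tumors 1 and 3 together brought them to 5. That last fit has 1 knockdown tumor, which is assumed to vary like the 3 control tumors, so its count says little about how stable the calls are.

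Of the regulators of RIG-I, MDA5 and MAVS, 1 of 10 was higher and 0 lower (median 0.02). Ddx60, an interferon-induced helicase linked to RIG-I, had 2.25, 2.00 and 2.27 TPM in knockdown tumors, against 0.66, 0.87 and 0.86 TPM in control tumors, with a log2 change of 0.82 and an adjusted p of 0.0494 (limma). That call was lost when any 1 of the 6 tumors was left out, with adjusted p-values of 0.0782 to 0.182 (limma). Of the other RNA helicases and RNA-binding proteins, 0 of 9 were called (median -0.08). Adar, the editor of double-stranded RNA, had the smallest p of that list, with 26.8, 25.3 and 26.1 TPM in knockdown tumors, against 16.9, 19.2 and 22.9 TPM in control tumors, and an adjusted p of 0.136 (limma).

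Of the DNA sensors, nucleases and regulators of cGAS and STING, 3 of 18 were higher and 0 lower (median -0.01). Ifi204, an interferon-inducible DNA-binding protein of a mouse gene family with near-identical copies, had 115, 123 and 103 TPM in knockdown tumors, against 54.9, 54.8 and 54.4 TPM in control tumors. Its log2 change was 1.04 with an adjusted p of 0.00558 (limma), and its level is uncertain where reads are shared with its relatives. Samhd1, a hydrolase of the building blocks of DNA, rose by 0.88 on the log2 scale (adjusted p = 0.0148, limma), and Trex1, an exonuclease that degrades cytosolic DNA, by 0.73 (adjusted p = 0.0288, limma). Samhd1 was not called without knockdown tumor 1 (adjusted p = 0.0527, limma) or knockdown tumor 2 (0.0584), and Trex1 was not called in 5 of the 6 fits that left out 1 tumor, the exception being the fit without control tumor 1, with adjusted p-values of 0.0519 to 0.0975 in the 5. Aim2, another cytosolic DNA sensor, had overlapping levels of 85.0 ± 10.3 TPM in knockdown tumors and 85.6 ± 6.19 TPM in control tumors (SD, n = 3 each).

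Of the endosomal receptor group, which holds chaperones and adaptors of TLR3 and TLR7, 0 of 13 were called (median 0.09). Its smallest p belonged to Tlr13, a mouse receptor for bacterial ribosomal RNA, with 7.42, 6.69 and 7.27 TPM in knockdown tumors, against 5.52, 5.40 and 5.80 TPM in control tumors, and an adjusted p of 0.157 (limma). Of the kinases, TRAF proteins and transcription factors shared by several sensors, 1 of 15 was higher and 0 lower (median -0.03). That gene was Irf7, an interferon-induced transcription factor, with 112, 114 and 92.0 TPM in knockdown tumors, against 29.0, 32.1 and 39.5 TPM in control tumors. Its groups lay far apart, with a log2 change of 1.64 and an adjusted p of 0.00595 (limma). Tbk1, the kinase that acts after MAVS and STING, had 23.6 ± 2.21 TPM in knockdown tumors and 22.3 ± 1.13 TPM in control tumors, and Irf3, the factor it activates, 56.8 ± 3.73 TPM in knockdown tumors and 54.9 ± 5.93 TPM in control tumors (SD, n = 3 each), both overlapping.

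Of the partners of ZBP1 in cell death, 0 of 7 were called (median 0.14). Mlkl, the executioner of necroptosis, had the smallest p, with 50.3, 55.1 and 48.5 TPM in knockdown tumors, against 34.9, 41.5 and 39.8 TPM in control tumors, and an adjusted p of 0.0855 (limma). Its kinase Ripk3 overlapped, at 59.8 ± 2.93 TPM in knockdown tumors and 52.6 ± 7.25 TPM in control tumors (SD, n = 3 each). Of the PKR and 2-5A list, 3 of 12 were higher and 0 lower (median -0.04), and all 3 were synthetases of the 2-5A signal that activates RNase L. The log2 change was 1.27 for Oas3 (adjusted p = 0.00595), 1.47 for Oas1a (adjusted p = 0.0141) and 1.24 for Oas2 (adjusted p = 0.0160), all from limma. Oas1a belongs to a mouse family of close copies, so its level is uncertain. Oas1a was not called without knockdown tumor 1 (adjusted p = 0.0576, limma) or knockdown tumor 2 (0.0544), nor was Oas2 without knockdown tumor 1 (0.0644).

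The interferon genes and early target genes formed the list with the highest share of calls. Of 13 genes, 7 passed the filter in tumors, and 6 of these were higher and 0 lower, with a median log2 change of 1.50. Because genes that are low in both groups drop out at the filter, this median describes the 7 only. Ifit3 changed by 1.68 (adjusted p = 0.00444), Ifit1 by 1.55 (adjusted p = 0.00558), Isg15 by 1.50 (adjusted p = 0.00595) and Rsad2 by 1.41 (adjusted p = 0.00711), all from limma on the log2 scale. These encode RNA-binding proteins, a ubiquitin-like modifier and an antiviral enzyme. The interferon genes of this list were near or at 0: Ifna1, Ifna4, Ifnl2 and Ifnl3 were listed at 0 in all 12 libraries, Ifnb1 was listed at 0.08 and 0.18 TPM in knockdown tumors 2 and 3 and at 0 in the other 10, and Ifna2 was listed at 0.06 TPM in control tumor 3 and at 0 in the other 11. Interferon genes outside the list, such as Ifng, were not examined here.

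**Figure D4:**
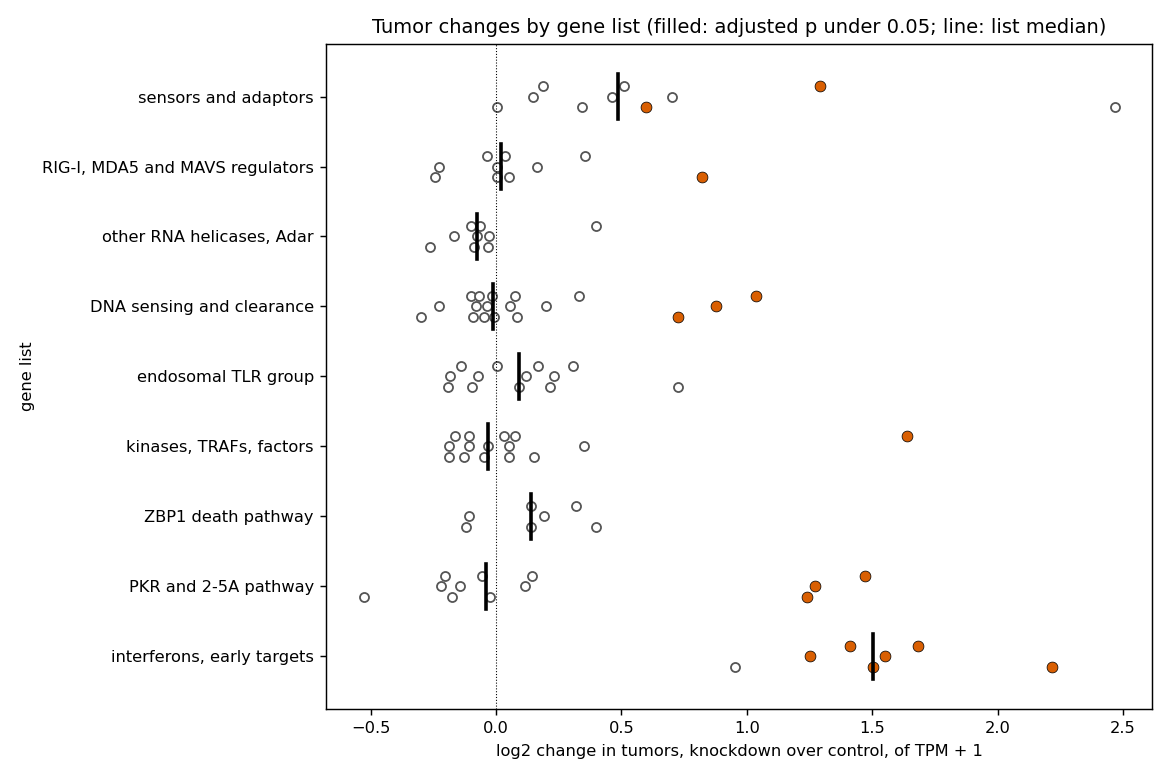
Log2 change of TPM + 1 in tumors, knockdown over control, for each tested gene (points) of the sensor list and the 8 pathway lists (rows); filled points have an adjusted p under 0.05 (limma) and the vertical line is the median of the list. The interferon and early target list has its median at 1.50, the sensors and adaptors at 0.49, and the other lists between -0.08 and 0.14.

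Markers of other cell types differed between the same tumors and are given beside the sensors. All 5 general leukocyte markers had positive changes and 0 were called, and their summed level was 558 to 643 TPM in knockdown tumors, against 379 to 492 TPM in control tumors. All 8 T and NK cell markers had positive changes and 0 were called, with sums of 53.7 to 60.6 TPM in knockdown tumors, against 12.6 to 32.3 TPM in control tumors. Neither sum overlapped. Control tumor 1, the lowest tumor for Zbp1, was the lowest for both sums, and also for the monocyte and macrophage, dendritic cell and B cell sums. Among the knockdown tumors the 2 sums were ordered differently. Zbp1 was highest in knockdown tumor 2, at 159 TPM, where the leukocyte sum was the lowest of the knockdown tumors, at 558 TPM. It was lowest in knockdown tumor 3, at 113 TPM, where the T and NK cell sum was also the lowest of the knockdown tumors, at 53.7 TPM. The highest T and NK cell sum was in knockdown tumor 1, at 60.6 TPM. The monocyte and macrophage sum overlapped, at 1564 to 2041 TPM in knockdown tumors and 1447 to 2036 TPM in control tumors. So did the dendritic cell sum, at 32.2 to 45.1 TPM in knockdown tumors and 26.6 to 44.4 TPM in control tumors. Changes were positive for 10 of 12 monocyte and macrophage markers and 5 of 6 dendritic cell markers, against 39.6% of all genes. Of these, 1 of the 12 and 0 of the 6 were called higher, against 1.07% of all genes. Of those lists no gene was at 0 in all tumors.

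Plasmacytoid dendritic cell markers, of interest because those cells use TLR7, summed to 15.4 to 23.7 TPM in knockdown tumors and 16.0 to 20.7 TPM in control tumors, and their defining marker Siglech had 0.61 to 1.14 TPM in knockdown tumors and 0.41 to 1.00 TPM in control tumors. Only 2 of the 6 markers passed the filter in tumors. In culture, where Siglech was listed at 0, they summed to 8.33 to 10.1 TPM with the knockdown and 7.62 to 10.3 TPM with the control hairpin. The tumor sum is therefore not a measure of those cells alone. B cell markers summed to 1.00 to 2.84 TPM in knockdown tumors and 0.83 to 2.26 TPM in control tumors. Both sums overlapped. The epithelial and ovarian markers, with Muc16 at 0, summed to 2559 to 2826 TPM in knockdown tumors, against 3226 to 3432 TPM in control tumors. Fibroblast markers summed to 706 to 1094 TPM in knockdown tumors and 1083 to 1469 TPM in control tumors, and endothelial markers to 33.2 to 48.9 TPM in knockdown tumors and 48.5 to 70.4 TPM in control tumors, with 0 of 6 and 0 of 5 called. The epithelial sums lay apart, and the fibroblast and endothelial sums overlapped.

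Skeletal muscle markers set knockdown tumors 1 and 3 apart, at 83.2 and 60.7 TPM, from knockdown tumor 2 at 11.8 TPM and from the control tumors at 2.31, 12.9 and 2.50 TPM. Without knockdown tumors 1 and 3 the log2 change was 1.23 for Dhx58, 0.57 for Eif2ak2, 0.63 for Ifih1 and 2.64 for Zbp1. These values are the deviations of knockdown tumor 2 alone from the control tumors. That tumor is also part of the estimate with all tumors, so they are no separate check of it. In cultured cells, where the leukocyte markers summed to 6.15 to 6.51 TPM with the knockdown and 6.91 to 8.84 TPM with the control hairpin, Ptprc did not exceed 0.04 TPM. The part of any of these cell types in the sensor changes of the tumors was not tested.

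**Figure D5:**
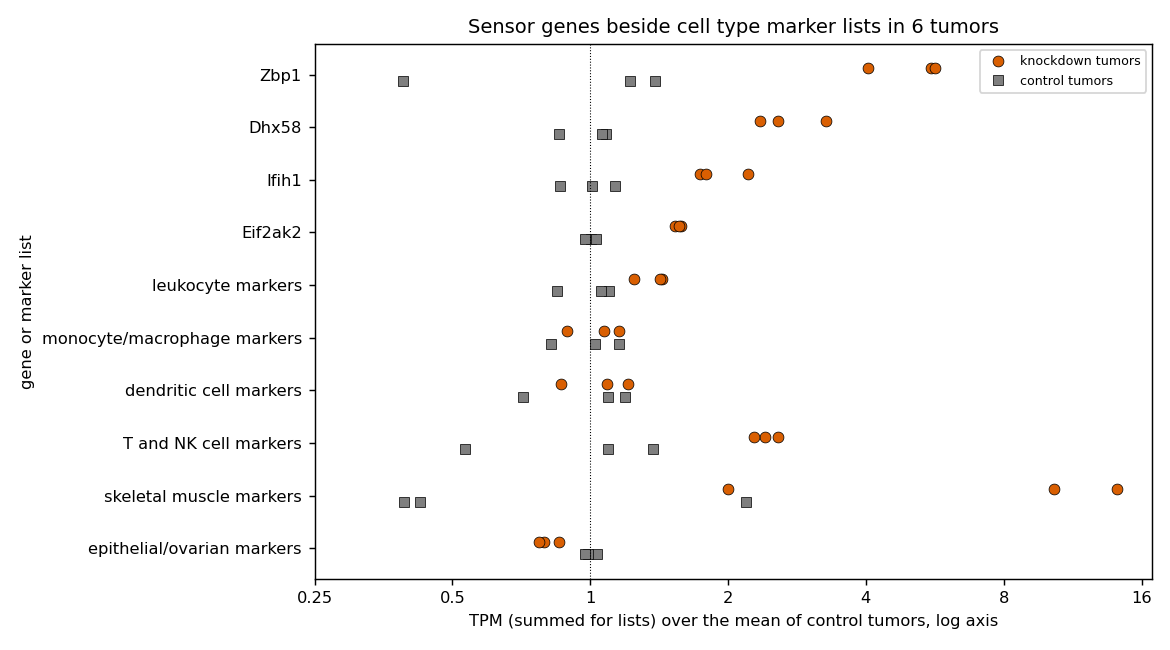
TPM of 4 sensor genes and summed TPM of 6 marker lists in each tumor, divided by the mean of the control tumors (horizontal log axis); circles are knockdown tumors and squares control tumors. The 4 sensors (Zbp1, Dhx58, Ifih1 and Eif2ak2) were picked from the 8 of 10 members whose tumor groups lie apart, so their separation follows from the choice. Circles and squares also lie apart for leukocyte, T and NK cell and epithelial markers, and overlap for monocyte and macrophage, dendritic and skeletal muscle markers. Mavs and Sting1, which overlap, and the plasmacytoid dendritic, B cell, fibroblast and endothelial lists are not drawn.

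The genes whose profile over the 6 tumors was most like the mean profile of the members were Znfx1, Cst7, Cd200r4, Fcgr1 and Trex1. The mean was not scaled by gene, so members that vary widely weigh most in it. Zbp1 spanned -1.10 to 2.64 around the control tumor mean, whereas Mavs stayed between -0.06 and 0.09 and does not resemble the mean profile. Likeness was the root mean square difference between centred log2 profiles, among 11549 genes that averaged 2 TPM or more in tumors, and was 0.0567 for Znfx1, 0.0641 for Cst7, 0.0659 for Cd200r4, 0.0686 for Fcgr1 and 0.0698 for Trex1. Znfx1, a helicase-like RNA-binding protein, had 24.1, 22.7 and 20.6 TPM in knockdown tumors, against 11.4, 13.5 and 15.5 TPM in control tumors. Fcgr1, an antibody receptor of monocytes and macrophages, had 26.2, 21.0 and 23.7 TPM in knockdown tumors, against 12.6, 14.6 and 16.3 TPM in control tumors, and in culture did not exceed 0.04 TPM. Cst7, a cystatin of immune cells, had 8.37 ± 0.539 TPM in knockdown tumors and 4.55 ± 0.771 TPM in control tumors, and Cd200r4, a receptor of the CD200R family, 3.58 ± 0.294 TPM in knockdown tumors and 2.05 ± 0.498 TPM in control tumors (SD, n = 3 each). All 5 profiles share their libraries with the members, so the likeness only describes these 6 tumors.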

How the data were processed

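RNA sequencing of 12 libraries gave the data. The authors deposited 1 table per library with gene identifier, name, length and TPM. Per the submitters' processing notes, GRCm39 was the build, and fastp, HISAT and RSEM were used, without stated roles, versions or strand setting. RSEM divides reads among similar transcripts, which makes levels of near-identical genes uncertain. TPM keeps no depth, so no counting interval is given. Values were transformed to log2(TPM + 1). Genes whose mean reached 1 TPM in a group of the fit were tested with limma 3.58.1 in R 4.3.3 (trended, robust, two-sided), with Benjamini-Hochberg adjustment over all genes tested and a threshold of 0.05. Tumors and cultures were fitted separately on 6 libraries each, and the difference on all 12 over 55416 shared identifiers. On this scale the changes of low genes are understated. The steps were tested on simulated data. Gene names came from the tables, and promoter windows from RefSeq on GRCm38.p6.

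The members, the 8 pathway lists, the 10 marker lists and the tests were chosen with earlier results of these data known. Genes named are the 10 members, St3gal3, up to 4 called genes per list by smallest p (or, with none called, the 1 with the smallest p), and the 5 closest profiles. Aim2, Irf3, Tbk1, Ripk3 and the interferon genes were added as examples of their lists. Alternatives were a pseudocount of 0.1, no filter, 1 TPM in 3 libraries, a replicate block, median-of-ratios scaling, quantile normalization, each library left out, and all 4 groups in 1 fit. Leaving out knockdown tumors 1 and 3 was chosen after seeing the data. Plots were made with matplotlib 3.10.9.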

Additional observations from a re-analysis of the deposited data

Results flagged for a closer look

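For 9 of the genes named above, the knockdown change in tumors differed from that in culture by limma's interaction term over 12 libraries. Over all 15381 genes tested, 0.754% were called for this term. Apart from St3gal3, these genes were named because they were called higher in the same tumors, which also supply the tumor part of the term. The term is therefore no separate support for those tumor calls. The difference on the log2 scale, tumor change minus culture change, was 1.19 for St3gal3 (adjusted p = 0.0164), whose fall was smaller in tumors than in culture. Leukocyte markers summed to 558 to 643 TPM in knockdown tumors and 6.15 to 6.51 TPM in knockdown cultures. The part of such other cells in the smaller fall of St3gal3 was not tested. For the interferon targets the difference was 1.74 for Ifit3 (adjusted p = 0.00445), 1.52 for Ifit1 (adjusted p = 0.00445), 1.39 for Isg15 (adjusted p = 0.0218) and 1.46 for Rsad2 (adjusted p = 0.00445). It was 1.71 for Irf7 (adjusted p = 0.0113), 1.45 for Oas1a (adjusted p = 0.0124), 1.15 for Oas2 (adjusted p = 0.0300) and 0.88 for Samhd1 (adjusted p = 0.0234). All of these adjusted p-values are from limma. With each of the 12 libraries left out in turn, Ifit3, Ifit1, Rsad2, Irf7 and Oas1a were called every time. Oas2 lost its call in 6 of the 12 cases, without any 1 control culture, knockdown culture 2 or 3, or knockdown tumor 1 (adjusted p of 0.0299 to 0.0744 over the 12, limma). Samhd1 lost it in 5, without control culture 2 or 3, knockdown culture 2 or 3, or knockdown tumor 1 (0.0237 to 0.0715). Isg15 lost it in 5, without control culture 2 or 3, knockdown culture 3, or knockdown tumor 1 or 2 (0.0146 to 0.0708). St3gal3 lost it in 1, without control culture 2 (0.0530). Over all 18 alternatives Oas2 was called in 8, with an adjusted p of up to 0.604, and Samhd1 and Isg15 in 10 each. With a replicate block none of the 9 was called. None of the 10 sensors and adaptors is among these genes. Ifit1, Ifit3, Rsad2, Oas1a and Oas2 did not exceed 0.24 TPM in any culture library, where a change could hardly be seen.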

How the results depend on the processing

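All 10 members kept a positive change in tumors under every alternative except Mavs and Sting1. With a replicate block, 2 genes were called in tumors, with 0 members, and 0 for the difference, and the adjusted p in tumors was 0.0936 for Dhx58, 0.0876 for Eif2ak2 and 0.0768 for St3gal3, whose change stayed at -1.13 (limma). Same-numbered libraries did not deviate together (correlations of -0.163 to 0.052), so the numbers are not taken as pairs. Genes called in tumors were 82 with no filter, 599 with all 4 groups in 1 fit, 72 without knockdown tumors 1 and 3 (a fit with 1 knockdown tumor, assumed to vary like the control tumors), and 38 to 229 with 1 library left out. Of these 82, 86.6% were higher, against 71.1% of 225 in the fit as reported. Members called in tumors were 4 with median-of-ratios scaling, 4 with quantile normalization, 5 with all 4 groups in 1 fit, 0 without knockdown tumors 1 and 3, and 0 to 3 with 1 library left out. The median member change in tumors was 0.55 with a pseudocount of 0.1, 0.55 with median-of-ratios scaling, and 0.40 to 0.59 with 1 library left out. Genes called in culture were 11 with the pseudocount of 0.1, 8 with 1 TPM in 3 libraries, 8 with all 4 groups in 1 fit, and 7 to 15 with 1 library left out. Genes called for the difference were 26 with the pseudocount of 0.1, 199 with median-of-ratios scaling, 183 with quantile normalization, and 67 to 164 with 1 library left out. Members called for the difference were 3 with median-of-ratios scaling, 1 with quantile normalization, and 0 to 1 with 1 library left out. Median-of-ratios scaling moved the median difference of all genes to 0.05, against -0.06 as reported. Without knockdown tumors 1 and 3, St3gal3 in tumors was at -1.21 (adjusted p = 0.0531, limma). Among signs that turned, Mavs was at -0.056 in tumors without knockdown tumors 1 and 3, at -0.012 in culture with median-of-ratios scaling, and for the difference at 0.11 with that scaling and 0.042 with quantile normalization. With 1 library left out, Mavs ranged over -0.036 to 0.036 in tumors, -0.080 to 0.082 in culture and -0.077 to 0.085 for the difference, Cgas over -0.075 to 0.15 in culture, Eif2ak2 over -0.090 to 0.17 in culture, Tlr3 over -0.051 to 0.66 in culture and -0.15 to 0.56 for the difference, and Sting1 over -0.00059 to 0.23 in tumors and -0.14 to 0.10 for the difference. Over all alternatives and comparisons, member changes kept their sign and side of the threshold in 361 cases, lost a call in 8, gained one in 15 and turned in sign in 24. For the other named genes only the tumor comparison was counted. There they kept their side in 206 cases, lost a call in 53 and gained one in 7. Calls that these genes lost for the difference are not in that count. The cause of these changes was not tested, beyond the smaller number of libraries where some were left out.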
